A study of Mus musculus with 8 samples.

Results

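Trimethylation of histone H3 at lysine 4 (H3K4me3) was compared between wild-type and Asxl1-/- stromal cells as 2 lists of islands, an island being a stretch of the genome in which a mark was called as enriched. All islands of both lists on the 19 autosomes were taken, 17395 in wild type and 14792 in Asxl1-/-, together 32187 of the 158177 islands that 7 libraries of the series hold. An island counted as shared when it overlapped an island of the other genotype by at least 1 bp, and otherwise as lost (wild type alone) or gained (Asxl1-/- alone). The study profiled ASXL1 in wild-type cells, and H3K4me2, H3K4me3 and H3K27me3 in both genotypes, by chromatin immunoprecipitation and sequencing. The cells were mesenchymal stem/progenitor cells grown out from the bone marrow of mice on a C57BL/6 background, used between passages 5 and 10. The wild-type group is wild type at Asxl1, and the other group is labelled Asxl1-/-; no treatment or other allele is named, and the number of donor animals, or how and in which tissue Asxl1 was deleted, is not given in the sources used here. Each group is 1 library, and for that reason the differences carry no replicate error and were not tested.

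H3K4me3 is laid down at gene starts by the SET1 and MLL methyltransferase complexes, and unmethylated CpG-rich DNA draws these complexes through their CXXC-domain subunits. It sits at active promoters and, together with the Polycomb mark H3K27me3, at promoters of developmental genes that are held silent but poised, while very broad H3K4me3 covers genes that define a cell's identity. ASXL1 is a partner of the deubiquitinase BAP1 and is tied to Polycomb and to H3K4 methylation, and its loss in marrow stroma is known to disturb osteoblast and fat cell formation.

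The promoters of 8 named genes show the range of sequence under the islands that differed. They are the RefSeq windows of GRCm38.p6, from 250 bases before to 50 bases after the start, each written 5′ to 3′ along its gene, with every CpG in capitals. Il1rl1 (chr1:40439379-40439678, plus strand), Meox2 (chr12:37108290-37108589, plus strand) and Six2 (chr17:85688205-85688504, minus strand) had an island in wild type alone. Cfd (chr10:79890603-79890902, plus strand) and Cd80 (chr16:38458683-38458982, plus strand) had one in Asxl1-/- alone. At Zmiz1 (chr14:25458935-25459234, plus strand) islands were joined, at Dot1l (chr10:80754953-80755252, plus strand) the island was wider, and at Col1a2 (chr6:4505368-4505667, plus strand) it was narrower in Asxl1-/-.
Il1rl1: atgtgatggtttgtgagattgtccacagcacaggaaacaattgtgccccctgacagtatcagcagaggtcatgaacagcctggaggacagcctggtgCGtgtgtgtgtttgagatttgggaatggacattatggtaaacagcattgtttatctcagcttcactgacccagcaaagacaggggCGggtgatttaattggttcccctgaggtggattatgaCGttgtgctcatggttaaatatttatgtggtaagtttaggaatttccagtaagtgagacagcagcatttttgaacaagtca
Meox2: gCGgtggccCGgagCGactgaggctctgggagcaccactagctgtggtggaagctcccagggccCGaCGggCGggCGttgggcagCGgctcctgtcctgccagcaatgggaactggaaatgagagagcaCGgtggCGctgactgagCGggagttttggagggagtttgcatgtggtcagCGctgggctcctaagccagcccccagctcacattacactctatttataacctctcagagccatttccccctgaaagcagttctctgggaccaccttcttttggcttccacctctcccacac
Six2: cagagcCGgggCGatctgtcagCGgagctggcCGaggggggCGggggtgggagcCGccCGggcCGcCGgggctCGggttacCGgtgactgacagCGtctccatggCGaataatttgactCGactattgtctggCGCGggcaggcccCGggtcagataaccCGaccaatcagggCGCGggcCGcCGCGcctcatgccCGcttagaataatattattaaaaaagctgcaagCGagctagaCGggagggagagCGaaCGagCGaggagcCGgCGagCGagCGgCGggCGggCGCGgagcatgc
Cfd: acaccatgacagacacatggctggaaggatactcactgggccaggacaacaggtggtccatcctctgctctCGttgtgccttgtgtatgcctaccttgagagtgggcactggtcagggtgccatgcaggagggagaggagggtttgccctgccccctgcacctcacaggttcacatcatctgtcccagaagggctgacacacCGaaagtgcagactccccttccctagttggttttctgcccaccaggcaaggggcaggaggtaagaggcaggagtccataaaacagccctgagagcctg
Cd80: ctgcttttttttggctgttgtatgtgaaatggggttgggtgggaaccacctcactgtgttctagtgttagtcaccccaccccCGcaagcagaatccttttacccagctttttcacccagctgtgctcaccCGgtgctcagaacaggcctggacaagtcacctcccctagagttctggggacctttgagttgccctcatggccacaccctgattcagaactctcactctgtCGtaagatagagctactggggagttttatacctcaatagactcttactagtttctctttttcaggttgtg
Zmiz1: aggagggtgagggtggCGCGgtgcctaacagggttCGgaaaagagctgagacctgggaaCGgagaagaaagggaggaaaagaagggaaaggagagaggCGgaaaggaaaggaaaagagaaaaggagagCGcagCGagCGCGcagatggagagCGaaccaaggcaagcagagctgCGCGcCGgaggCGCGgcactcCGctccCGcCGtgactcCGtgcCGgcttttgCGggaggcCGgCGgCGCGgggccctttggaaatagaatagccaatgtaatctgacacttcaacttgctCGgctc
Dot1l: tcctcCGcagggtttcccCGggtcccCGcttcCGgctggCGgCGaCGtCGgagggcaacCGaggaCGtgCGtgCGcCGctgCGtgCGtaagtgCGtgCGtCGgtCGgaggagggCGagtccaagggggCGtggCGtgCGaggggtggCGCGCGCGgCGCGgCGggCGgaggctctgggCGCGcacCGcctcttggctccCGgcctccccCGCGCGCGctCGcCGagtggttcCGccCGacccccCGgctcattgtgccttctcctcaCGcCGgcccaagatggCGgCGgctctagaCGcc
Col1a2: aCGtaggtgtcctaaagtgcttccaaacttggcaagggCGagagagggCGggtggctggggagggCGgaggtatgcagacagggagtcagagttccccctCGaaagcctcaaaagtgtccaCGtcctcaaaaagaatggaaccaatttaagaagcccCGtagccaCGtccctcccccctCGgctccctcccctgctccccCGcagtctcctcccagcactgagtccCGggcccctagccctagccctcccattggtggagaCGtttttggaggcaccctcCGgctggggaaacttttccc
Il1rl1 has 3 CpGs in this window, Meox2 12 and Six2 37, while Cfd has 2, Cd80 3, Zmiz1 26, Dot1l 49 and Col1a2 13.

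These are single examples, and most of them lie well away from the medians of their classes. The observed-over-expected CpG ratio is the number of CpGs set against that expected from the C and G content. Its median was 0.807 over 7155 genes whose island kept its width, 0.747 over 1344 genes with a widened island, 0.766 over 454 with joined islands and 0.735 over 386 with a narrowed one. The ratio is 0.214 at Il1rl1, 0.435 at Meox2, 1.13 at Six2, 0.0802 at Cfd and 0.164 at Cd80. It is 1.03 at Zmiz1, 1.12 at Dot1l and 0.470 at Col1a2. The median was 0.569 over 384 genes that lost the mark, 0.407 over 271 that gained it and 0.190 over 6237 unmarked in both genotypes. Promoters that lost or gained H3K4me3 thus lay between the CpG-rich ones that kept it and the CpG-poor ones that never had it. Part of this went with island width. Among genes whose wild-type island measured 1 to 2 kb, the median ratio was 0.606 over 221 that lost it and 0.660 over 681 that kept it. The letters TATAAA, read on both strands, occurred in 9.64% of lost, 11.8% of gained, 5.93% of steady, 10.1% of narrowed, 12.3% of split and 24.5% of unmarked promoters, and in 13.3% of all 16456 promoters of this length. At wild-type widths of 1 to 2 kb they occurred in 6.33% of lost and 7.93% of kept promoters.

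Both cell populations carried stromal chromatin. Of 14 stromal markers, among them Pdgfra, Pdgfrb, Thy1, Nt5e, Col1a1 and Prrx1, wild type had H3K4me3 at 14 and Asxl1-/- at 13, the missing one being Eng. Of 10 haematopoietic markers, Spi1 and Coro1a were marked in wild type and Spi1 in Asxl1-/-, and Ptprc, Csf1r, Itgam and Cd3e were unmarked in both. Of 8 endothelial markers Kdr alone was marked, in both genotypes, and of 8 epithelial markers 4 were marked in wild type and 3 in Asxl1-/-. A smaller share of cells with the mark and less of the mark per cell cannot be told apart in such bulk libraries. At Asxl1 itself the start carried an island in both genotypes, of 7.2 and 6.2 kb, which does not show the deletion, since the labels do not name the deleted part.

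The size of the difference went by chromosome, in H3K4me3 and H3K4me2 alike. The median width ratio of paired H3K4me3 islands, Asxl1-/- over wild type, ran from 0.854 on chromosome 3 and 0.938 on chromosome 13 to 1.24 on chromosome 11 and 1.33 on chromosome 10. The share of wild-type islands lost ran the other way, from 37.3% on chromosome 3 to 9.70% on chromosome 9. Over the 19 autosomes the width ratio followed the H3K4me2 covered-length ratio with a Spearman correlation of 0.982, and the lost share with one of -0.909; the points share their libraries, and these are descriptions. Results are therefore also given for the 10 autosomes whose H3K4me2 covered-length ratio lay within 0.2 (log2) of the autosomal median, which are called the balanced autosomes here. They are chromosomes 1, 2, 5, 6, 7, 8, 15, 16, 17 and 19. The name refers to H3K4me2 alone, and to its median rather than to equal coverage in the 2 genotypes. The H3K4me2 ratios of the set ran from 0.801 on chromosome 16 to 1.04 on chromosome 15, the only one above 1. The H3K4me3 covered-length ratios of the set ran from 0.938 on chromosome 8 to 1.19 on chromosome 15, which had 143 widened and 23 narrowed pairs. The ratios were 1.17 and 1.16 on chromosomes 12 and 18, which are outside the set. The set is thus not free of differences between chromosomes in H3K4me3. The part that these shifts have in differences on the other 9 autosomes was not tested.

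**Figure D1:**
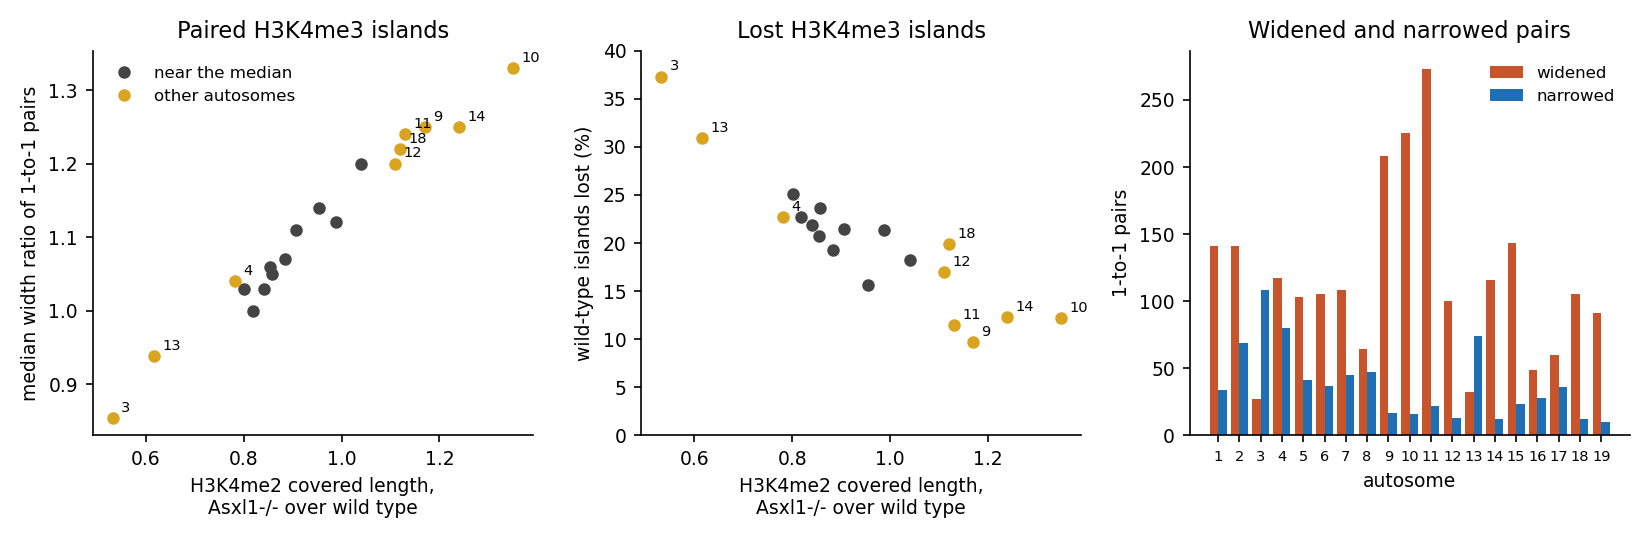
H3K4me3 by autosome against the H3K4me2 covered-length ratio, Asxl1-/- over wild type; each point is 1 autosome, and numbers name those away from the median. Left, the median width ratio of 1-to-1 pairs, lowest on chromosome 3 (0.854) and highest on chromosome 10 (1.33); middle, the percentage of wild-type islands lost, 37.3% on chromosome 3; right, the numbers of widened and narrowed pairs, with narrowed pairs in excess on chromosomes 3 and 13.

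H3K4me3 in Asxl1-/- cells lay in fewer and wider islands. The median width was 3400 bp in wild type and 4200 bp in Asxl1-/-, and the widest islands measured 34.6 kb and 68.4 kb. Islands of at least 10 kb numbered 449 in wild type, 2.58% of its list, and 772 in Asxl1-/-, 5.22%. Islands under 1 kb were 4.0% and 1.91%. The covered length differed less, at 66.9 Mb and 70.6 Mb.

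Islands were then followed from one list to the other through their overlaps. A total of 12722 wild-type islands met a single Asxl1-/- island that met no other. Of these pairs 59.7% were wider in Asxl1-/-, 32.8% were narrower and 7.55% were equal, and 21.3% differed by no more than 200 bp, the step of the grid on which all islands lie. A pair was called widened or narrowed when the widths differed by at least 1.5 times and at least 1000 bp. Widened pairs numbered 2208, which is 17.4% (95% exact Clopper-Pearson interval 16.7 to 18, here and below for counting error alone). Narrowed pairs numbered 724, which is 5.69% (5.29 to 6.11), and 9790 pairs were steady. In 402 places 2 or more wild-type islands lay under 1 Asxl1-/- island and were called merged, against 143 places where 1 wild-type island was split. A further 3562 wild-type islands were lost, 20.5% (19.9 to 21.1), and 1254 Asxl1-/- islands were gained, 8.48% (8.03 to 8.94). The net length was -6.81 Mb in lost islands and -1.74 Mb in narrowed pairs, while widened pairs added 5.91 Mb, gained islands 2.99 Mb, steady pairs 2.31 Mb and merges 1.07 Mb.

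On the balanced autosomes the same classes were the more frequent. There 1005 pairs were widened and 370 narrowed, 235 places were merged and 79 split, and 2026 islands were lost and 552 gained. The median width ratio was 1.08, against 1.1 over all autosomes. Merges outnumbered splits, and widened pairs narrowed ones, on 17 of 19 autosomes, the exceptions being chromosomes 3 and 13. With every Asxl1-/- island shortened by 200 bp at each side, the median ratio was 1.00, the covered-length ratio went from 1.06 to 0.967 and narrowed pairs came to 1401 beside 1572 widened, while 396 merges, 137 splits, 20.7% lost and 8.39% gained were left. With both lists cut to the same number of islands by width, 13.8% were lost and 15.2% gained, so that gains were then the more frequent.

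Unshared islands were the narrow ones. Of wild-type islands under 1 kb 65.5% (61.9 to 69) were lost, of those from 1 to 2 kb 51.0%, from 3 to 4 kb 10.2%, and of those of 8 kb or more 1.33% (0.729 to 2.22). Gained islands followed the same course, from 41.0% under 1 kb to 1.23% at 8 kb or more. Widening did not belong to narrow or to wide islands as such. With pairs sorted by wild-type width into 5 equal groups the median ratio went down from 1.30 to 1.00, with pairs sorted by Asxl1-/- width it went up from 1.00 to 1.22, and sorted by the mean of both it stayed between 1.09 and 1.12.

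**Figure D2:**
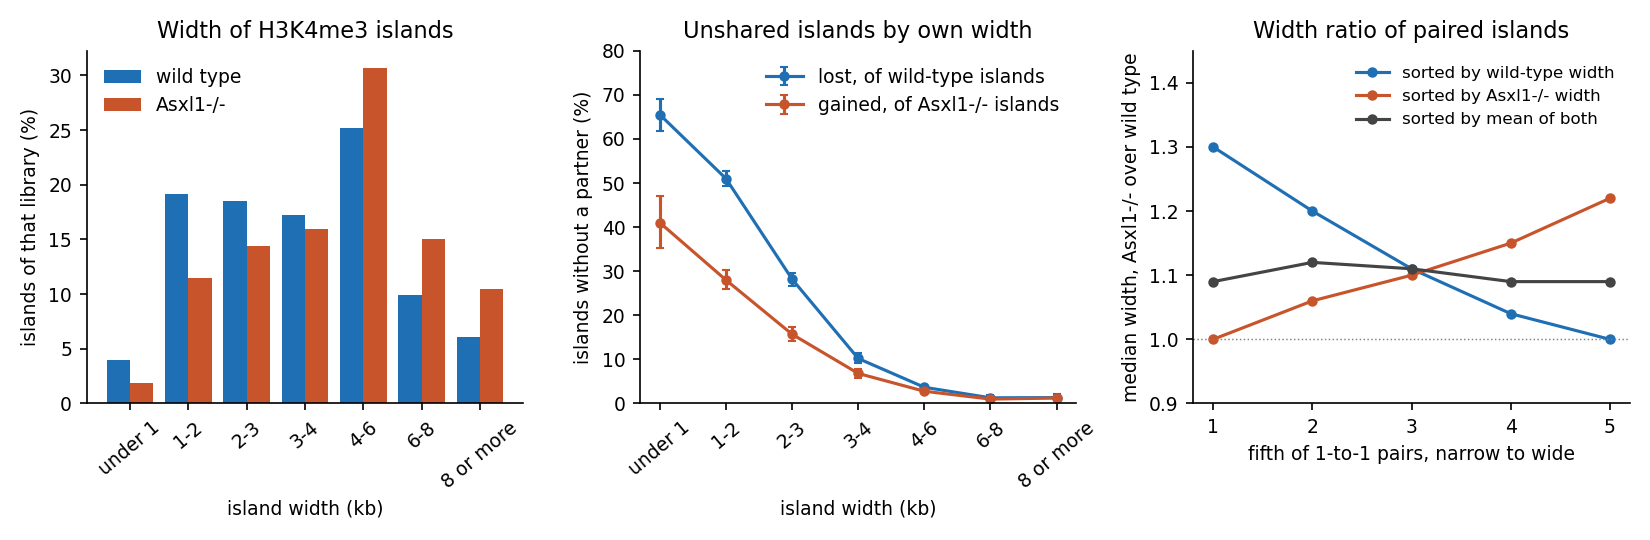
Left, the percentage of each library's autosomal H3K4me3 islands by width. Middle, the percentage of islands without a partner in the other genotype by their own width, with 95% exact intervals, going from 65.5% (lost) and 41.0% (gained) under 1 kb to 1.33% and 1.23% at 8 kb or more. Right, the median width ratio of 1-to-1 pairs in 5 equal groups, which slopes in opposite directions with the 2 sortings and is level when both widths are averaged.

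Merging closed mostly small gaps. The 402 merges took in 842 wild-type islands, 4.84% of the list, in 369 pairs, 28 groups of 3 and 5 groups of 4, and bridged 440 wild-type gaps. The median gap was 400 bp, the smallest that the calling leaves between islands, 63.2% were at most 600 bp, and the widest was 15 kb. H3K4me2 already ran through the whole of 331 of these gaps in wild type, 75.2% (70.9 to 79.2), and ASXL1 islands covered 65.9% of their length. The 151 gaps opened by splits had the same median of 400 bp but a maximum of 5.0 kb, with 76.8% of at most 600 bp. H3K4me2 of Asxl1-/- filled 71.5% (63.6 to 78.6) of them, and ASXL1 covered 82.9% of their length.

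Some of the larger merges took in several genes. The 3 islands around Midn on chromosome 10, 52.4 kb in all, were 1 island of 68.4 kb that also reaches the starts of Stk11, a tumour suppressor kinase, Cirbp and Atp5d. At Efemp2 on chromosome 19, which codes for a fibulin of elastic fibres, 3 islands of 37.6 kb became 1 of 54.4 kb that takes in Fosl1 and Cfl1. In the Hoxa cluster on chromosome 6, 4 islands with 37.8 kb were 1 island of 57.0 kb (chr6:52194200-52251199, coordinates as deposited on mm10) over Hoxa3 to Hoxa11, and at Hoxc5 and Hoxc6 on chromosome 15, 2 islands with 8.2 kb were 1 of 21.4 kb. Other merges lay within 1 gene. At Lrp1, the low-density lipoprotein receptor-related protein gene on chromosome 10, 2 islands with 18.6 kb were 1 of 36.0 kb, and at Zmiz1, a transcriptional coactivator gene on chromosome 14, 14.0 kb went to 27.6 kb. Of the developmental regulators, Zeb2 on chromosome 2 went from 9.6 to 20.0 kb and En1 on chromosome 1 from 5.4 to 13.0 kb. Chromosomes 10 and 14 stand at H3K4me2 covered-length ratios of 1.35 and 1.24.

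Among pairs, the largest widenings were of more than 10 kb. The island at Dot1l, the H3K79 methyltransferase gene on chromosome 10, went from 8.8 to 23.8 kb. Pdgfrb on chromosome 18, a receptor that marks stromal cells and pericytes, went from 7.6 to 22 kb, Loxl1 on chromosome 9, a lysyl oxidase that crosslinks elastin, from 2.8 to 16.0 kb, and Cxxc5 on chromosome 18 from 5.8 to 18.8 kb. On balanced autosomes Pmepa1, a TGF-beta feedback gene on chromosome 2, went from 5.2 to 19.4 kb, Lzts2 on chromosome 19 from 18.8 to 32.0 kb, the muscle kinase gene Speg on chromosome 1 from 4.6 to 16.4 kb, and Lrrc32 on chromosome 7, whose product holds latent TGF-beta at the cell surface, from 5.6 to 16.6 kb. Each of these genes had H3K4me2 in both genotypes. All but Speg had an ASXL1 island in wild type.

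Very wide islands were partly different places in the 2 genotypes. Of the 449 wild-type islands of at least 10 kb, 301 (67.0%) lay in a cluster that held such an island in Asxl1-/-. Another 481 of the 772 in Asxl1-/- had no wild-type island of that width in their cluster. Of these 481, 169 were merges, 157 widened pairs, 133 steady pairs that passed 10 kb, 15 in complex clusters and 7 gained.

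The extra length around gene starts was more one-sided upstream. For this 3402 starts were used at which both genotypes had an island, in genes of at least 10 kb with no other coding start within 10 kb. The median reach into the gene was 2740 bp in wild type and 2940 bp in Asxl1-/-, and upstream 1290 and 1570 bp. The island ran at least 1 kb further into the gene at 719 starts, 21.1% (19.8 to 22.5), and at least 1 kb less far at 404, 11.9% (10.8 to 13.0). Upstream it ran 1 kb further at 604, 17.8% (16.5 to 19.1), and 1 kb less far at 128, 3.76% (3.15 to 4.46). Added length over removed length was 1.83 into the gene and 3.17 upstream. Of the starts with a further reach, 507 had it downstream alone, 392 upstream alone and 212 on both sides. At 2 kb into the gene 73.5% of starts were covered in wild type and 78.7% in Asxl1-/-, and at 2 kb upstream 19.4% and 32.8%. At 8 kb into the gene the shares were 3.53% and 3.73%. The difference into the gene thus lay within its first few kilobases. On the balanced autosomes 20.4% of 1887 starts reached further into the gene and 12.6% less far, and upstream the shares were 16.2% and 4.13%. These shares use the 1 kb limit, and fewer islands could shrink by 1 kb upstream. In wild type 65.9% of the 3402 starts were covered at 1 kb upstream and 94.4% at 1 kb into the gene. With no limit the contrast was smaller. Upstream 57.1% of the 3402 ran further and 26.0% less far, and into the gene 50.1% and 35.4%.

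**Figure D3:**
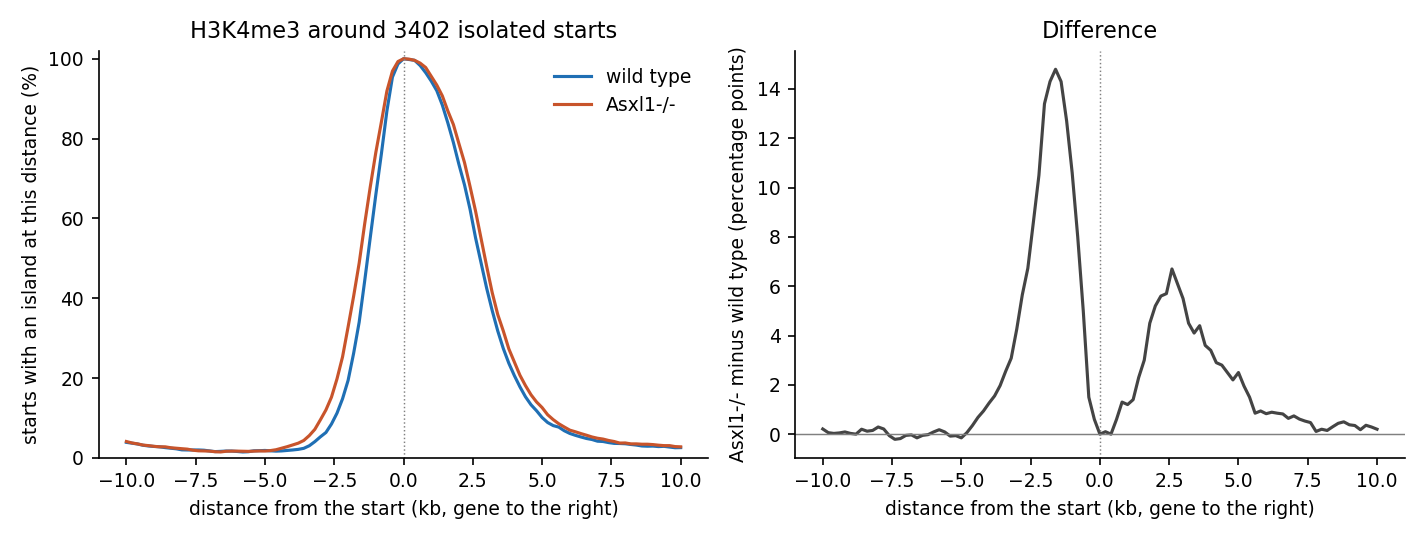
Percentage of 3402 isolated starts with an H3K4me3 island at each distance from the start, in steps of 200 bp, for wild type and Asxl1-/- (left), and the difference between them in percentage points (right). The upstream shoulder is the larger, with 19.4% and 32.8% at 2 kb before the start, against 73.5% and 78.7% at 2 kb into the gene.

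At single genes the reach could differ by many kilobases. The island from the start of Lrp1 ran 9.75 kb into the gene in wild type and 32.7 kb in Asxl1-/-. That of Map1a, a microtubule-associated protein gene on chromosome 2, ran 2.20 and 12.6 kb, that of Rai1 on chromosome 11 ran 2.19 and 12.6 kb, that of Hdac5, a class II histone deacetylase gene on chromosome 11, ran 7.57 and 16.8 kb, and that of the interleukin 4 receptor gene Il4ra on chromosome 7 ran 2.93 and 9.93 kb. For Stk11 the figure of 65.6 kb in Asxl1-/- passes the end of the 14.9 kb gene. Upstream, the island of Sparc, the osteonectin gene on chromosome 11, ran 0.521 and 6.72 kb, in the same order of genotypes, that of Myl12b on chromosome 17 ran 3.88 and 13.7 kb, and that of the H3K4 demethylase gene Kdm5b on chromosome 1 ran 1.58 and 5.98 kb.

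Over all shared islands, length was added in the same kinds of place as it was removed. Length covered in Asxl1-/- alone at shared islands came to 13.5 Mb, of which 59.8% lay in gene bodies, 30.8% between genes and 9.44% within 1000 bp of a start. Length covered in wild type alone there came to 5.96 Mb, with 64.3% in gene bodies, 27.4% between genes and 8.28% near starts. The 54.1 Mb covered in both divided into 46.3%, 14.3% and 39.3%. H3K4me2 of wild type already covered 62.2% of the added length, against 97.7% of the length covered in both, and H3K4me2 of Asxl1-/- covered 53% of the removed length. ASXL1 covered 36.8% of the added, 54.7% of the removed and 78.3% of the common length.

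Narrowing and splitting were rarer than widening and merging. At Col1a2, which codes for a chain of type I collagen, the island on chromosome 6 went from 21.6 to 10.6 kb, and its reach into the gene from 17 to 6.18 kb. Vgll3, a TEAD cofactor gene on chromosome 16, went from 20.8 to 8.4 kb, Trps1, a repressor in cartilage and bone on chromosome 15, from 19.6 to 4.6 kb, and Maf on chromosome 8 from 12 to 4.4 kb. At Cwc22, a splicing factor gene on chromosome 2, 30.6 kb went to 8.4 kb. Birc2, an inhibitor of apoptosis on chromosome 9, went from 14.2 to 4.6 kb, although that chromosome has 208 widened pairs and 17 narrowed ones. The homeobox gene Gsc on chromosome 12 went from 13.8 to 4.2 kb. Splits included Cdkn2a on chromosome 4, which codes for the p16 and p19 proteins of senescence, where 13.0 kb in 1 island became 7.6 kb in 2, and Cdkn2c on the same chromosome, where 14.0 kb became 9.6 kb. The island over a run of histone genes on chromosome 13, at H4c8, went from 29.8 kb to 22.2 kb in 4 pieces. Chromosomes 4 and 13 have H3K4me2 covered-length ratios of 0.782 and 0.616.

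**Figure D4:**
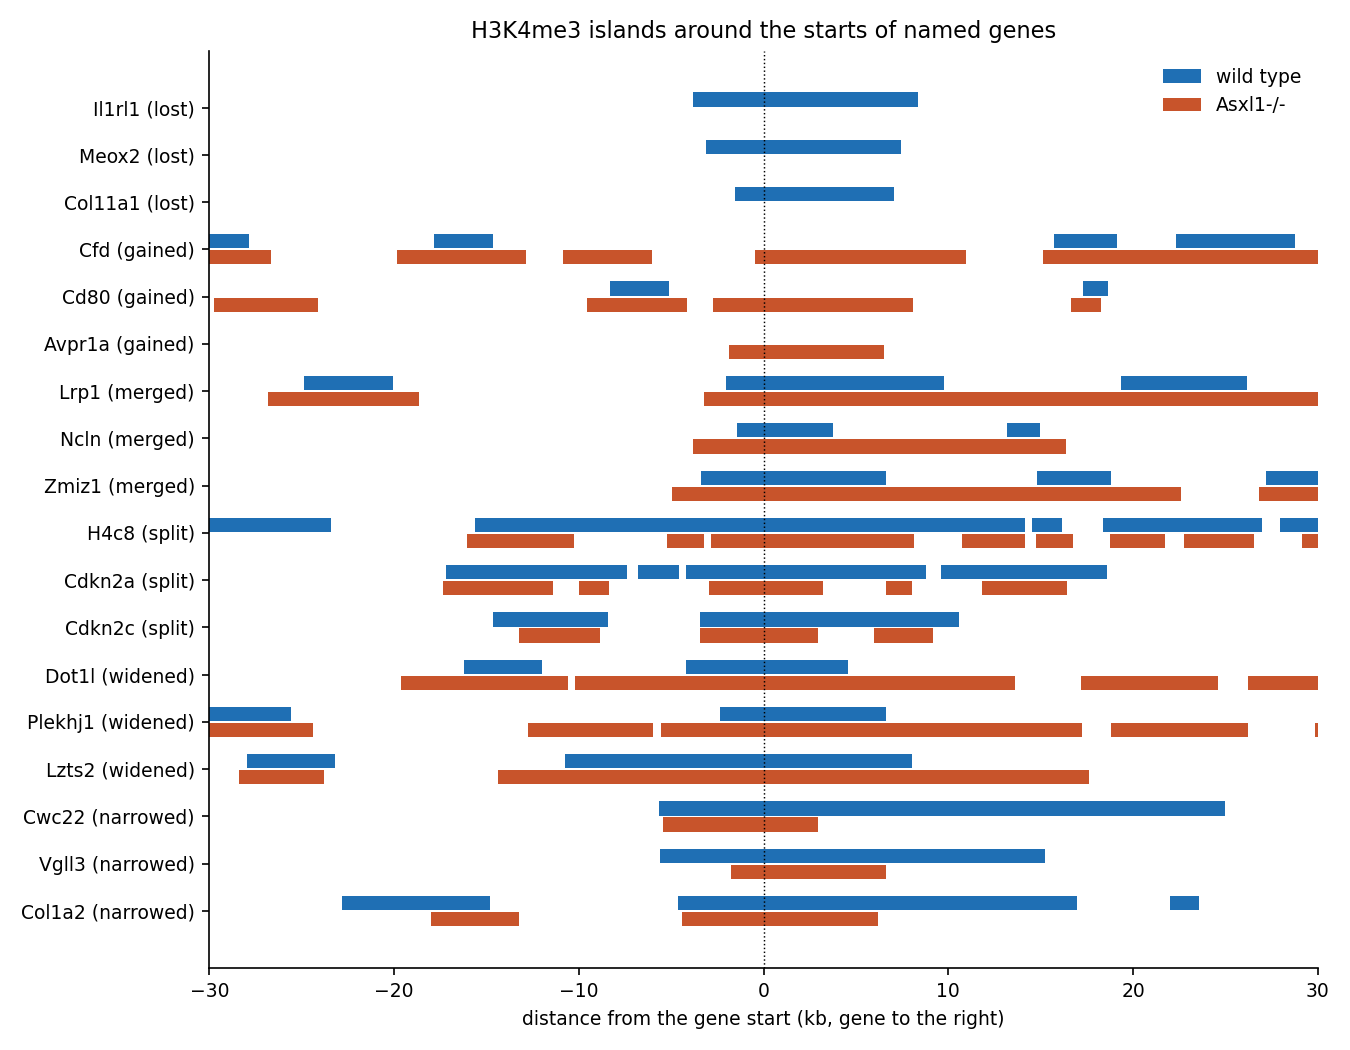
H3K4me3 islands within 30 kb of the starts of 18 named genes, wild type above Asxl1-/- in each row, as distance from the start with the gene running to the right. Up to 3 genes of each class are drawn, such as Meox2 (10.6 kb in wild type alone), Cd80 (10.8 kb in Asxl1-/- alone), Lrp1 (18.6 kb in 2 islands, then 36.0 kb in 1), Dot1l (8.8 to 23.8 kb) and Col1a2 (21.6 to 10.6 kb).

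Lost islands were mostly away from gene starts. A start of a protein-coding gene lay within 1000 bp of 15.5% (14.3 to 16.7) of lost islands and of 77.7% (77.0 to 78.4) of shared wild-type islands. In gene bodies lay 44.9% and 11.6%, and between genes 39.6% and 10.7%. Among wild-type islands of 1 to 2 kb, both limits included, 16.3% of 1953 lost and 47.5% of 2063 shared ones were at a start. Gained islands stood between, with 27.8% (25.3 to 30.3) at a start, 42.2% in gene bodies and 30.1% between genes.

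Most places that differed in H3K4me3 kept H3K4me2. Of the lost islands 73.6% (72.1 to 75) overlapped H3K4me2 in both genotypes and 24.8% in wild type alone. Of the gained islands 64.4% (61.7 to 67.1) overlapped H3K4me2 in both and 32.7% in Asxl1-/- alone. The share with ASXL1 differed between the directions. It overlapped 79.7% (79.0 to 80.3) of shared wild-type islands, 58% (56.4 to 59.7) of lost and 21.7% (19.4 to 24.1) of gained ones. Among islands of 1 to 2 kb, where width is alike, it overlapped 52.3% (50.1 to 54.6) of lost and 36.0% (33.9 to 38.1) of shared wild-type islands, and 15.5% (12.7 to 18.8) of gained ones. Place was not alike, as 16.3% of these lost and 47.5% of these shared wild-type islands were at a start. Over all widths ASXL1 overlapped 27.9% of lost islands at a start and 63.6% of those away from starts. Shared islands were not divided by place, so the part of place in the difference was not tested. Of shared classes, split islands had ASXL1 in 96.5%, merged ones in 87.4%, narrowed ones in 82.7%, steady ones in 81.6% and widened ones in 65.1%. From 2 to 4 kb the shares were 70.4% (67.7 to 73.0) of widened, 75.9% (74.5 to 77.3) of steady, 68.1% (62.6 to 73.2) of narrowed and 76.5% (74.1 to 78.8) of lost islands.

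H3K27me3 was common at starts that lost or gained H3K4me3. H3K27me3 of wild type overlapped 55.3% (51.0 to 59.5) of 552 lost islands at a start and 56.9% (51.5 to 62.2) of 348 gained ones at a start, against 11.5% and 17.3% of those away from starts. It overlapped 20.0% of all shared wild-type islands and 29.4% (27.5 to 31.4) of those that were widened. From 2 to 4 kb the shares were 27.1% (24.6 to 29.7) of widened and 24.5% (23.1 to 25.9) of steady islands. At the 1 to 2 kb width it overlapped 42.2% of shared and 21.0% of lost islands, of which 47.5% and 16.3% were at a start. Shared islands at a start were not counted apart. The shares at lost and gained starts therefore do not set these apart from starts that kept a narrow island. ASXL1 overlapped 27.9% (24.2 to 31.8) of the lost and 7.76% (5.18 to 11.1) of the gained islands at a start.

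**Figure D5:**
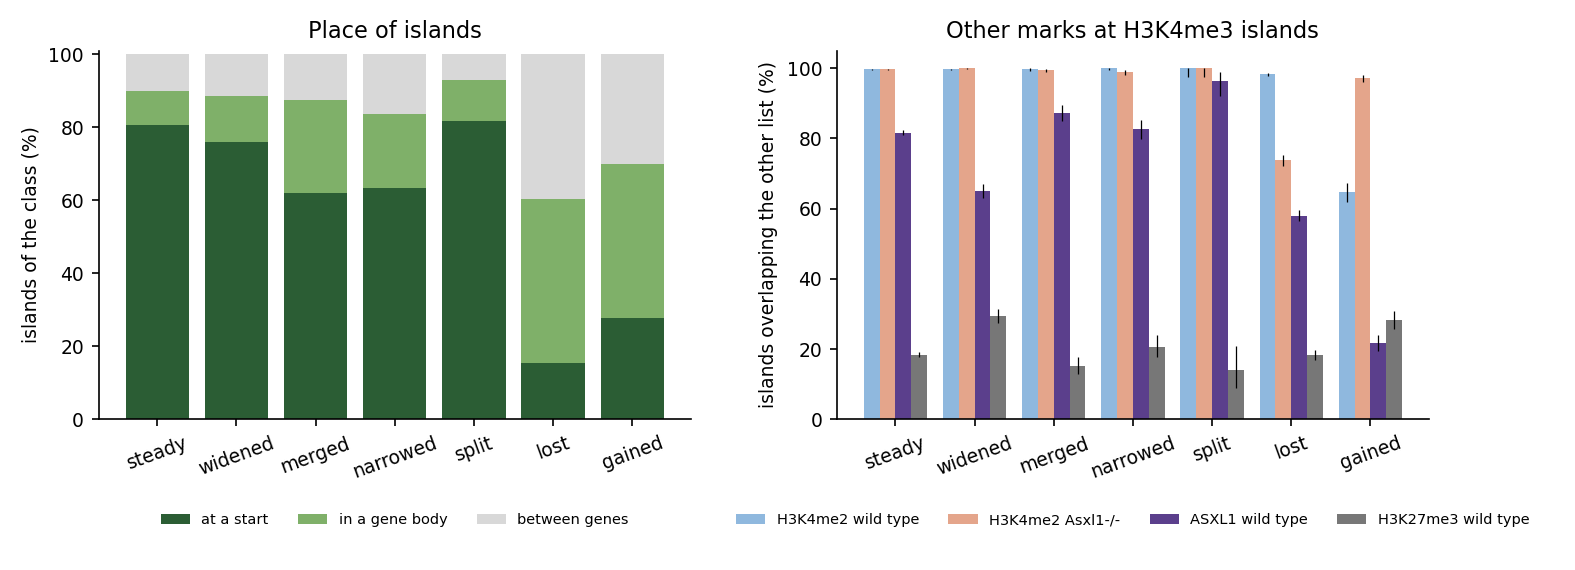
Left, where the islands of each class lie: within 1000 bp of a protein-coding start, in a gene body or between genes; lost islands are at a start in 15.5% and steady ones in 80.6%. Right, the percentage of each class that overlaps H3K4me2 of either genotype, ASXL1 and H3K27me3 of wild type, with 95% exact intervals; ASXL1 overlaps 58% of lost and 21.7% of gained islands.

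For genes, the islands within 1000 bp of a start were used, and of either gene end for 4205 of 20661 autosomal protein-coding genes whose start is not in the sequence table. H3K4me3 was at 12436 genes in wild type and at 12323 in Asxl1-/-. The 509 genes that lost it make 4.09% of the first number, and the 396 that gained it make 4.81% of genes without it in wild type. Of the 11927 genes marked in both, 14.6% had a widened island, 4.89% merged islands, 4.04% a narrowed and 1.57% a split one, so that 19.5% were merged or widened and 5.61% narrowed or split. On the balanced autosomes 4.54% of marked genes lost and 3.77% of unmarked genes gained the mark, and 17.2% were merged or widened and 5.09% narrowed or split. Counts for gene groups below are to be read against these shares, and neighbours that share an island are not independent.

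Whole islands were lost at genes of several kinds. That of Il1rl1, the receptor for interleukin 33, measured 12.2 kb in wild type (chr1:40435800-40447999), and H3K4me2 was there in both genotypes. Six2, a homeobox gene of nephron and craniofacial progenitors on chromosome 17, lost 7.8 kb, with H3K27me3 and H3K4me2 in both genotypes. Traf1, an adaptor of TNF receptors on chromosome 2, lost 6.6 kb. Meox2 (10.6 kb), Cd34 (8.4 kb) and Ankrd1 (8.2 kb) belong here too. Of these 6, Meox2 and Ankrd1 also lacked H3K4me2 in Asxl1-/-, and all had ASXL1 in wild type.

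Whole islands gained were mostly free of ASXL1 in wild type. Cd80 on chromosome 16, a costimulatory ligand gene, had 10.8 kb in Asxl1-/-, Plac8 on chromosome 5 had 8.0 kb and Endou on chromosome 15 had 7.8 kb, and all lacked H3K4me2 in wild type. On chromosome 10, Cfd, the adipsin gene of fat cells, had 11.4 kb and the vasopressin receptor gene Avpr1a 8.4 kb, both with H3K27me3 in wild type and not in Asxl1-/-. Krt19, a keratin gene on chromosome 11, had 8.2 kb with the same course of H3K27me3. Of the 10 gained genes with the widest islands, ASXL1 lay at Hoxb9.

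Genes of the bone lineage included widened islands. Of 17 marked osteoblast genes 5 were widened, 1 merged and 1 narrowed, and none was lost (0 to 19.5%), which does not set them apart from the 4.09% over all genes. Sparc went from 8.4 to 17.4 kb, Runx2, the master regulator of osteoblasts, from 2.4 to 3.8 kb, Msx1 from 2.4 to 4.4 kb, Enpp1, which makes pyrophosphate, from 3.6 to 6.0 kb, and Pth1r, the parathyroid hormone receptor gene, from 0.6 to 1.8 kb. Col1a2 was the narrowed one. On the balanced autosomes 2 of 10 were merged or widened, near the 17.2% over all genes.

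Adipocyte genes were mixed. Of 22 kept genes 7 were merged or widened and 4 narrowed or split. On the balanced autosomes 3 of 14 were merged or widened and 3 narrowed or split, beside 17.2% and 5.09% over all genes. The adipogenic factors Ebf1 (5.2 to 10.4 kb), Ebf2 (3.6 to 8.2 kb), Cebpa (4.2 to 7.0 kb) and Klf15 (4.8 to 7.4 kb) and the fatty acid carrier Fabp4 (2.2 to 4.0 kb) were wider. Ebf1 and Ebf2 lie on chromosomes 11 and 14, with H3K4me2 covered-length ratios of 1.13 and 1.24. Srebf1, the regulator of lipid synthesis (6.0 to 3.0 kb), the lipase gene Lipe (6.2 to 3.8 kb) and Dgat2 of triglyceride synthesis (4.0 to 2.4 kb) were narrower, and Cebpb was split.

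Cartilage matrix genes were among those that lost the mark. Of 13 cartilage genes marked in wild type 5 lost it, or 38.5% (13.9 to 68.4), and on the balanced autosomes 2 of 7. Comp (4.4 kb), Acan (1.2 kb), Hapln1 (0.8 kb) and Col11a1 (8.6 kb) code for cartilage matrix, and Cnmd (1.0 kb) for chondromodulin. Ihh, the hedgehog ligand of growth plates, went from no island to 4.4 kb and Col9a2, a cartilage collagen gene, to 0.8 kb, and none of the 8 kept genes was merged or widened. The islands of Acan, Cnmd and Hapln1 are of widths at which 51.0% (1 to 2 kb) and 65.5% (under 1 kb) of all wild-type islands were lost. Those shares take in islands away from starts, which make up most lost ones. Of wild-type islands of 1 to 2 kb at a start, 318 were lost and 980 shared. Col11a1 and Hapln1 lie on chromosomes 3 and 13.

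Collagen genes had both widened and lost islands. Of 18 kept genes 8 were widened, or 44.4% (21.5 to 69.2), and on the balanced autosomes 4 of 10. Over all genes 19.5% and 17.2% were merged or widened. The 8 genes lie in 7 clusters of islands, and both counts take Col4a1 and Col4a2 as 2 genes, so the interval is not one for independent islands. Col4a1 and Col4a2, which share a start region and 1 island on chromosome 8, went from 6.0 to 12 kb, Col5a1 on chromosome 2 from 9.0 to 16.2 kb, Col6a3 on chromosome 1 from 6.8 to 11.4 kb and Col16a1 on chromosome 4 from 4.4 to 7.0 kb. Of 23 marked genes 5 lost the mark, and Col11a1, Col24a1 and Col25a1 among them lie on chromosome 3. Of the other matrix genes Fbn1, the fibrillin gene on chromosome 2, went from 4.6 to 8.8 kb, Timp3 on chromosome 10 from 3.6 to 9.0 kb and Thbs1 on chromosome 2 from 11.2 to 17.4 kb, while Postn on chromosome 3 went from 2.8 to 1.2 kb.

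Stromal and pericyte markers differed in both directions. Widened were Pdgfrb, Prrx1 (9.4 to 15.8 kb), Cspg4, the NG2 proteoglycan of pericytes (2.4 to 7.0 kb), Nes (2.4 to 5.2 kb), Thy1 (4.0 to 6.6 kb), Mcam (2.6 to 4.2 kb) and Ly6a (3.6 to 6.0 kb), 7 of 24 kept genes. Dcn, the decorin gene (6.2 to 1.4 kb), Prrx2 (9.6 to 4.2 kb) and S100a4 (9.0 to 3.2 kb) were narrowed. Eng, a TGF-beta coreceptor, lost 3.6 kb together with H3K4me2, and Rgs5, a pericyte gene, gained 5.6 kb. Cspg4, Thy1 and Mcam lie on chromosome 9, with an H3K4me2 covered-length ratio of 1.17, and Pdgfrb on chromosome 18, with one of 1.12. On the balanced autosomes 2 of 13 kept genes were merged or widened, or 15.4%, beside 17.2% over all genes.

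Contractile genes of smooth muscle include widened, gained, narrowed and lost islands. Of 20 kept genes 5 were widened and 1 merged, and on the balanced autosomes 4 of 9. Acta2, smooth muscle actin, went from 2.6 to 5.2 kb, Myl9 from 3.2 to 8.0 kb, Csrp1 from 5.4 to 12.4 kb and Cnn1, calponin, from 1.6 to 4.4 kb. Of 10 genes unmarked in wild type 3 gained an island, and 1 of 8 on the balanced autosomes. These were Lmod1 with 3.4 kb, Ldb3 with 3.6 kb and Myocd, the coactivator of the smooth muscle programme, with 2.2 kb. Synpo on chromosome 18 lost the mark at its ends (4.0 to 1.0 kb), and Synpo2 on chromosome 3 was narrowed from 2.2 to 1.0 kb.

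Targets of p53, the factor that answers DNA damage, had wider islands at 9 of 16 genes. This group of 16 was drawn from a wider list of p53, cell cycle and senescence genes after its values had been seen, so its count is a description. All 16 were marked in both genotypes and none was narrowed or split, with a median width ratio of 1.55 against 1.1 over all kept genes. Cdkn1a, the p21 gene on chromosome 17, went from 4.0 to 10.6 kb, Gdf15 on chromosome 8 from 2.6 to 8.2 kb, Ccng1 on chromosome 11 from 2.4 to 6.6 kb, Trp53inp1 on chromosome 4 from 3.4 to 7.2 kb and Mdm2, the ligase that degrades p53, on chromosome 10 from 6.4 to 9.8 kb. Pmaip1 (2.4 to 4.4 kb) and Fas (3.6 to 6.2 kb) of cell death, Sesn2 (5.8 to 9.4 kb) and Zmat3 (4.6 to 7.2 kb) complete the set. These lie on 8 chromosomes, including chromosome 3 with its lower coverage. On the balanced autosomes 3 of 7 were widened. Other inhibitors of cyclin-dependent kinases differed, as Cdkn2a, Cdkn2b and Cdkn2c of chromosome 4 and Cdkn1b of chromosome 6 had split islands, and Cdkn1c gained 2.0 kb. In the wider list 12 of 47 kept genes were merged or widened and 7 narrowed or split.

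Inflammatory and interferon genes together were merged or widened at 8 of 41 kept genes, the same 19.5% as over all genes, and narrowed at 7. Of 45 marked 4 lost the mark and of 23 unmarked 4 gained it. The narrowed members were chemokine, cyclooxygenase, interleukin 1 and NF-kappaB pathway genes. These were set apart with others of their kind after their values had been seen, so the counts of this group of 19 kept genes, with 0 merged or widened, are a description and support nothing. Cxcl5 went from 8.8 to 1.6 kb, Ptgs2, the inducible cyclooxygenase gene, from 9.2 to 6.0 kb, Ccl2 from 8.0 to 4.8 kb, Il1r1 from 6.0 to 2.8 kb, Cxcl10 from 3.4 to 1.2 kb, Nfkb1 from 7.2 to 4.8 kb and Tlr2 from 4.4 to 2.8 kb. Il1rl1, Cxcl2 and Cxcl3 (both 2.8 kb) lost the mark, while Nos2 (5.8 kb) and Cxcl14 (2.4 kb) gained it. Il1rl2, a receptor gene of the interleukin 1 family outside the list, was widened from 3.2 to 5.2 kb. Interferon genes, set apart in the same way after their values had been seen, had 7 of 16 merged or widened and none narrowed. The absence of narrowed members depends on the sorting, since Cxcl10 was counted in the first group, and these counts support nothing either. They include Irf1 (6.0 to 10.0 kb), Irf9 (5.0 to 10.6 kb), Irf5 (4.4 to 6.8 kb), Irf7 (2.6 to 4.4 kb), Oas1a (1.2 to 3.2 kb) and Cd274, the PD-L1 gene (2.0 to 5.6 kb), while Irf8 lost an island of 1.6 kb. On the balanced autosomes the first group had 4 of 11 kept genes narrowed and the second 4 of 9 merged or widened. These are the same chosen groups, so the contrast between them is a description there too. In the whole family of chemokines and their receptors, taken by symbol, none of 11 kept genes was merged or widened and 4 were narrowed. This family shares members with the first group and is no separate check on it. Other families by symbol differed. Interleukin and receptor genes were merged or widened at 7 of 22 kept genes and narrowed at 3. TNF superfamily genes were widened at 3 of 16 and narrowed at 1.

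Components of Wnt signalling had merged or widened islands at 16 of 48 kept genes, or 33.3% (20.4 to 48.4), and 8 of 26 on the balanced autosomes. The secreted antagonists Sfrp1 (4.2 to 8.0 kb), Sfrp4 (1.8 to 5.6 kb) and Frzb (2.8 to 5.8 kb), the ligand Wnt10b (3.0 to 7.0 kb), the receptors Fzd5 (5.0 to 8.8 kb) and Lrp5 (6.2 to 10.0 kb) and the R-spondin Rspo2 (4.8 to 8.2 kb) were widened. Lrp6, the coreceptor related to Lrp5, was narrowed from 10.4 to 5.8 kb, and Rspo1 (2.8 kb) and Wnt3 (1.0 kb) lost the mark. In the BMP and TGF-beta pathway 10 of 46 were merged or widened and 8 narrowed or split. Bmp1, a procollagen protease (7.8 to 15 kb), and Inhbb (4.2 to 7.8 kb) were wider, and the ligands Bmp2 (3.2 to 1.8 kb) and Bmp4 (7.8 to 4.8 kb) narrower. Of the YAP and TEAD genes, Yap1 itself on chromosome 9 went from 12.4 to 6.4 kb, beside Birc2, and 4 of 36 kept genes were merged or widened.

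Hox genes, which set position along the body axis, differed at most members. Of 19 kept genes 10 were merged, 3 widened and 3 narrowed, but these 13 wider genes lie in 6 clusters of islands. Of 18 unmarked genes 10 gained the mark through 8 clusters, and 4 of 9 on the balanced autosomes. Hoxa6, Hoxa11, Hoxb8 and Hoxc8 gained it in clusters already counted as merged or widened, so the 2 counts share islands. The gained genes Hoxb2, Hoxb4, Hoxb5, Hoxb6, Hoxb8 and Hoxb9 lie on chromosome 11, with an H3K4me2 covered-length ratio of 1.13. Hoxa2, at the anterior end of its cluster, lost an island of 5.8 kb, and Hoxd1 one of 1.0 kb. Hoxd8 (6.0 to 2.0 kb), Hoxd3 (3.6 to 1.0 kb) and Hoxd9 (3.2 to 1.4 kb) were narrowed on chromosome 2, while Hoxc12 (3.0 to 5.0 kb) and Hoxc13 (4.2 to 7.2 kb) were widened on chromosome 15.

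Other homeobox regulators lost the mark at 10 of 66 marked genes, or 15.2% (7.51 to 26.1), against 4.09% over all genes, and at 6 of 46 on the balanced autosomes. They also gained it at 6 of 36 unmarked genes, or 16.7% (6.37 to 32.8), against 4.81%, and 13 of 56 kept genes were merged or widened. After Meox2 and Six2 the widest was Nkx6-1 with 4.2 kb, and the others, such as Gbx2, Lhx1, Pax6 and Gsx2, had islands of up to 2.0 kb in wild type. Isl1 (7.4 to 1.6 kb), Dlx2 (11 to 5.0 kb) and Gsc were narrowed. The limb gene Pitx1 (1.2 to 9.6 kb) and Irx2 (1.2 to 11 kb), where wild type had part of the island, were gained, and both lie on chromosome 13, where 7 genes gained and 29 lost the mark.

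Of genes of other lineages, 22 of 42 epithelial, 21 of 34 endothelial and 35 of 47 haematopoietic genes were unmarked in wild type. Those with an island in either genotype differed in both directions. Epithelial genes lost it at 7 of 20, including the cadherin gene Cdh1 (2.4 kb), the splicing regulator Esrp1 (3.4 kb) and Elf3 (1.6 kb), and 6 of 11 on the balanced autosomes, and gained it at 3 of 22. Endothelial genes lost it at 5 of 13, with Cd34, Eng, Erg (2.4 kb), Tal1 (1.2 kb) and Lyl1 (4.8 kb), gained it at Selp (3.0 kb) and Prox1 (3.4 kb), and were widened at Sox7, Sox18 and Fli1 (2.8 to 5.6 kb). Haematopoietic genes were widened at 5 of 10 kept, among them Runx1 (8.4 to 17 kb), and gained the mark at Fcer1g (5.4 kb), Kit (4.2 kb) and Ikzf1 (1.4 kb). Many of these islands are narrow, and 51.0% of all wild-type islands of 1 to 2 kb were lost, most of them away from starts. Of islands of that width at a start, 318 were lost and 980 shared. In some lists no marked gene lost H3K4me3. These hold 36 housekeeping genes, 38 immediate early genes, 81 genes with an Rpl or Rps symbol and 78 mitochondrial ribosomal protein genes. They also hold 45 complex I genes and 55 genes of the ASXL, BAP1, COMPASS and Polycomb complexes. The intervals around 0 end between 4.45% and 9.74%, which does not set these lists apart from the 4.09% over all genes. Their median wild-type widths were 4.6 to 8.9 kb. Of all wild-type islands, 3.67% from 4 to 6 kb and 1.33% of 8 kb or more were lost. The Rpl and Rps symbols are mostly those of ribosomal proteins but include S6 kinase genes. The ASXL, BAP1, COMPASS and Polycomb genes were merged or widened in 10.9% (4.11 to 22.2), beside 19.5% over all genes, while solute carrier genes were in 27.9% (21.9 to 34.6). Among the last, the glucose transporter gene Slc2a1 (9.0 to 10.0 kb) was merged, and the cystine transporter gene Slc7a11 on chromosome 3 was narrowed from 4.0 to 0.8 kb.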

How the data were processed

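Chromatin immunoprecipitation libraries of wild-type and Asxl1-/- mesenchymal stem/progenitor cells were compared as island lists. Per the submitters' processing notes, BWA was used and islands were called with SICER 1.1 on mm10. The settings of either tool were not given in the sources used here. Each deposited list holds a chromosome, start and end for each island, on a grid of 200 bp, with no read count, score or p-value, so depth is unknown. A shallower or weaker library gives fewer or narrower islands, and intervals cover counting error alone. The authors' positions are the values used, with no deposited coverage.

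Overlaps linked islands into clusters, from which the classes were taken. Gene starts, names and promoters came from RefSeq tables of GRCm38.p6, whose coordinates are those of mm10, with 16456 of 20661 autosomal protein-coding genes matched to a start. Of 1207 listed symbols 1206 were found. The named genes are the 10 of each class with the widest or most changed island, and changed members of 26 lists and 27 symbol families. Members and lists were chosen with earlier results of these data known. The p53, inhibitor, chemokine and interferon groups, taken from longer lists, were chosen after seeing values. With 1 library per group no test was made. Python 3.11.15, numpy 2.4.6, pandas 2.3.3, scipy 1.17.1 and matplotlib 3.10.9 were used. On simulated data, made from 17395 wild-type islands, all 200 planted cases of each class were recovered. The planted changes were made to meet the class limits, with no noise added, so this checks the counting of classes alone. Alternatives changed the overlap, the island set, the thresholds, the window, the genes and the chromosomes. The input sample was not analysed here. A named gene of the lists is not reported here.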

Additional observations from a re-analysis of the deposited data

How the results depend on the processing

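With lists cut to equal numbers by width, 13.8% of wild-type islands were lost and 15.2% gained, genes lost and gained were 295 and 800, and the median width ratio was 1.09, so which of loss and gain is more frequent depends on the length of the lists. With islands of at least 1000 bp 19.1% were lost. With islands closer than 1000 bp joined, 7.66% were gained and 74 splits were left. With Asxl1-/- islands shortened by 200 bp at each side, 1401 pairs were narrowed, the median ratio was 1.00 and the covered-length ratio 0.967, which turns its direction. On the 10 balanced autosomes, fewer islands by construction, 21.1% were lost and 6.94% gained, with 235 merges, 79 splits, 1005 widened and 370 narrowed pairs, a median ratio of 1.08, and 313 genes lost and 180 gained. Looser limits with a difference of 400 bp gave 4430 widened and 1827 narrowed pairs, and 2 times and 2000 bp gave 606 and 174. Over all annotated genes 1007 lost and 755 gained the mark. For Hox, collagen, cell cycle and Wnt genes the balanced autosomes were added after seeing the data, with 12 of 18, 4 of 10, 5 of 20 and 8 of 26 kept genes merged or widened. Other causes were not tested. No paired analysis was possible because each group is 1 library without a replicate number.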

Other observations

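Clustered gene families whose members share islands gave counts that are better read by island. Of 58 marked replication-dependent histone genes none lost H3K4me3 (0 to 6.16%), beside 4.09% over all genes. Of these genes 15 lay under split and 2 under narrowed islands, in 5 clusters, all on chromosome 13. The median width ratio over the family was 0.909. Of 48 protocadherin genes unmarked in wild type 13 gained the mark, 12 of them in the gamma cluster of chromosome 18, where starts were not in the table and either gene end was used; the 13 genes fall in 5 clusters of islands. Genes for C2H2 zinc finger proteins, a large family placed here by the symbol Zfp, were merged or widened at 14.1% of 327 kept genes and on the balanced autosomes at 10.3%, below the shares over all genes. Of 13 that were narrowed 8 lie on chromosome 13. Of 1104 autosomal olfactory receptor genes 1 was marked, in both genotypes.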
